A study of Mus musculus and Homo sapiens with 10 samples.

Results

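The genes described here carry vitamin C (ascorbate) across membranes, make it, or return its oxidised form to ascorbate. They were taken by symbol from the table of gene values of mouse embryonic stem cells (mESCs), in which all 10 chosen symbols were found among 25899 genes. These are *Slc23a1*, *Slc23a2*, *Slc23a3*, *Slc2a1*, *Slc2a3*, *Gulo*, *Rgn*, *Gsto1*, *Gsto2* and *Glrx*. The upper-case symbols of 9 of them were found among 35720 genes in the table of human embryonic stem cells (hESCs), where GULO was not analysed. The mouse cells were of the line E14, grown feeder-free in 2i medium with LIF, which holds mESCs in a naive state, and 4 untreated cultures were set beside 4 cultures given vitC at 100 µg/ml for 24 h. Each control shared a culture label (VC10, VC11, VC35B or VC35C) with 1 treated culture, so the 8 libraries came from 4 labels. The human cells, which the study calls primed, were of the line H9. The study's methods describe primed H9-NK2 cells, with inducible KLF2 and NANOG transgenes, in medium with serum replacement and bFGF. They also describe primed H9 cells without mention of transgenes, in HFF-conditioned medium. The study's text does not say which of these cultures gave the RNA-seq libraries. There was 1 untreated library and 1 library of cells given vitC at 100 µg/ml for 24 h.

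Ascorbate enters cells in 2 chemical forms. The reduced form is carried together with sodium by the SLC23 proteins, and the oxidised form, dehydroascorbate, passes through facilitative glucose carriers such as GLUT1 and GLUT3. Inside the cell dehydroascorbate is reduced again by thiol-dependent enzymes that draw on glutathione. Ascorbate keeps the iron of 2-oxoglutarate-dependent dioxygenases reduced, the enzymes that demethylate histones and oxidise 5-methylcytosine. Most mammals make ascorbate from glucose through glucuronate in the liver, with gulonolactone oxidase (GULO) at the last step, which the human lineage has lost.

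Each mouse library held between 3354852 and 6921305 gene reads, recovered as whole numbers from the deposited variance-stabilised values. The library VC35B with vitC was the shallowest. Naive and primed pluripotency markers were present in the mESC libraries, with 8 of 8 markers of each list at 10 or more reads in every library. The lists share *Pou5f1*, *Sox2* and *Nanog*. The 7 fibroblast markers summed to between 7.52 and 20.0 RPM (reads per 1000000 recovered gene reads of the library), with *Dcn* at 0, and the 5 endoderm markers to between 0.843 and 3.17, with *Afp* at 0. The mouse RNA was labelled total RNA and the human RNA polyA RNA. The study's methods describe depletion of rRNA from total RNA before library construction and name no polyA selection. Nothing in the labels says that the culture labels are independent thaws or days, so p-values measure the spread between these libraries. In bulk libraries, fewer expressing cells and less RNA per cell cannot be told apart.

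Promoter windows of RefSeq on GRCm38.p6, from 250 bases before to 50 bases after a start site, were found for 6 of the 10 mouse genes (*Slc23a2*, *Slc23a3*, *Slc2a1*, *Gsto1*, *Gsto2* and *Glrx*). Those of the GLUT1 carrier, of the main ascorbate carrier and of the neighbouring omega glutathione transferases are shown. A link between their letters and the levels below was not tested. Capitals mark the core letters of the hypoxia response element, ACGTG or GCGTG on either strand.
*Slc2a1*, chr4:119108495-119108794, + strand: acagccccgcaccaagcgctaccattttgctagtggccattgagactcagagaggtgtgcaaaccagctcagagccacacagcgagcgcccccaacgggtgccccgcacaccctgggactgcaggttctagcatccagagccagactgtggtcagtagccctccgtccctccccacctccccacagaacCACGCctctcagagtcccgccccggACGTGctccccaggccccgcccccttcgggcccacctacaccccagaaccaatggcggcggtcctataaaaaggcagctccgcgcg
*Slc23a2*, chr2:132145059-132145358, - strand: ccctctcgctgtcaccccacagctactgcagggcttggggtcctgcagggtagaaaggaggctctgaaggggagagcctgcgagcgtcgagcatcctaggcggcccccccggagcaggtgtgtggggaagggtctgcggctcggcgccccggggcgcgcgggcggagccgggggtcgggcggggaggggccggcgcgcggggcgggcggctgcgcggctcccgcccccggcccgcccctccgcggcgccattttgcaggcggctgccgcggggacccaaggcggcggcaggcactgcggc
*Gsto1*, chr19:47854723-47855022, + strand: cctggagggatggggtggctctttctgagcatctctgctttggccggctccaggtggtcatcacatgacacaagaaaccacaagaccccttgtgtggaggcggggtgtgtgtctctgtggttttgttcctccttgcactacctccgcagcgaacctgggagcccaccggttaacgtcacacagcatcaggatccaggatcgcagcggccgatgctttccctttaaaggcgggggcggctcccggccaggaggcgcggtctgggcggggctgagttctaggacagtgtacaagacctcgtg
*Gsto2*, chr19:47865295-47865594, + strand: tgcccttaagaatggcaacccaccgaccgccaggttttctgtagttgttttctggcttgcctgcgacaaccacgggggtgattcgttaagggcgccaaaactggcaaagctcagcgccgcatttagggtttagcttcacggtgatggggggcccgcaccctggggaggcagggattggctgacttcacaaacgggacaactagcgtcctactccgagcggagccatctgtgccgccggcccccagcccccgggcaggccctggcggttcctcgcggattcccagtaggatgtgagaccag

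The *Slc2a1* window held the hypoxia core at 2 places, starting 61 and 36 bases before the start site. The *Slc23a3* window also held it at 2 places, and the windows of the other 4 genes held none. Of 32851 windows of this length, 43.8% held at least 1 such core. The antioxidant core TGACNNNGC, searched on both strands, was in none of the 6 windows and in 12.4% of all windows. The *Slc23a2* window held 37 CG dinucleotides, against a median of 7 over all windows, and 95.05% of windows held as many or fewer. The *Gsto2* window held 20 and the *Gsto1* window 16. These matches describe letters and not binding.

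Among the carriers of reduced ascorbate, the mESC libraries held reads of *Slc23a2* and almost none of the other members. *Slc23a2* (SVCT2, the sodium-dependent ascorbate carrier of most tissues, chromosome 2, 132052496 to 132145108 of GRCm38) was at 96.3, 109, 103 and 103 RPM in the controls labelled VC10, VC11, VC35B and VC35C. With vitC it was at 108, 103, 106 and 109 RPM in the same order. The groups overlapped, and the lowest and the highest of the 8 libraries lay close together. *Slc23a1* (SVCT1, the carrier of intestinal and kidney epithelium, chromosome 18, 35614604 to 35627244) had 4 reads in all among 42054342 gene reads of the 8 libraries. These 4 reads fell in 3 libraries, and the gene overlaps *Paip2* on the other strand. *Slc23a3*, an SLC23 relative for which ascorbate transport has not been established, had 1 read, in the VC11 culture with vitC.

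The carriers of dehydroascorbate were the most abundant of these genes. *Slc2a3* (GLUT3, a high-affinity glucose carrier, chromosome 6, 122727809 to 122801640) was at 1058, 1049, 744 and 751 RPM in the controls VC10, VC11, VC35B and VC35C. With vitC it was at 1142, 1011, 725 and 713. The libraries divided by culture label and not by treatment, with all 4 of VC10 and VC11 above all 4 of VC35B and VC35C. The gene overlaps the processed pseudogene *Gm4482* on its own strand. *Slc2a1* (GLUT1, the widespread basal glucose carrier, chromosome 4, 119108711 to 119137983) was at 199, 198, 250 and 249 RPM in the same controls and at 198, 190, 227 and 212 with vitC. Here the order of the culture labels was the opposite, with VC35B and VC35C above VC10 and VC11.

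Of the genes for synthesis, *Gulo* (gulonolactone oxidase, chromosome 14, 65986786 to 66009207) had few reads in every mESC library. It had 6, 4, 7 and 4 reads in the controls and 2, 4, 2 and 4 with vitC, or 0.922 RPM over the controls (exact 95% Poisson interval 0.571 to 1.41) and 0.622 with vitC (0.321 to 1.09). These intervals, which cover counting error only, overlapped. *Rgn* (regucalcin, the gluconolactonase of the step before, on chromosome X) had 1 read, in the VC11 culture with vitC. Over the 4 controls *Rgn* had 0 reads, which allows a level of up to 0.132 RPM.

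Among the recycling enzymes, *Gsto1* (glutathione transferase omega 1, a dehydroascorbate reductase, chromosome 19, 47854970 to 47864790) was at 26.6, 20.8, 12.9 and 13.0 RPM in the controls VC10, VC11, VC35B and VC35C. With vitC it was at 28.5, 26.1, 14.0 and 15.2, higher than its control at each label, while VC10 and VC11 stayed above VC35B and VC35C. Its neighbour *Gsto2* (chromosome 19, 47865534 to 47886324), whose product has the same activity, had 0 reads in all 8 libraries, which allows up to 0.0713 RPM. Both genes lie within *Cfap43* on the other strand, and no source says whether the counting used strand. *Glrx* (glutaredoxin 1, a glutathione-dependent thiol reductase that also reduces dehydroascorbate, chromosome 13, 75839868 to 75850154) was at 33.2, 36.8, 39.2 and 39.2 RPM in the controls and at 35.4, 39.1, 34.3 and 38.2 with vitC. No order by treatment or by culture label was seen for *Glrx*.

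**Figure D1:**
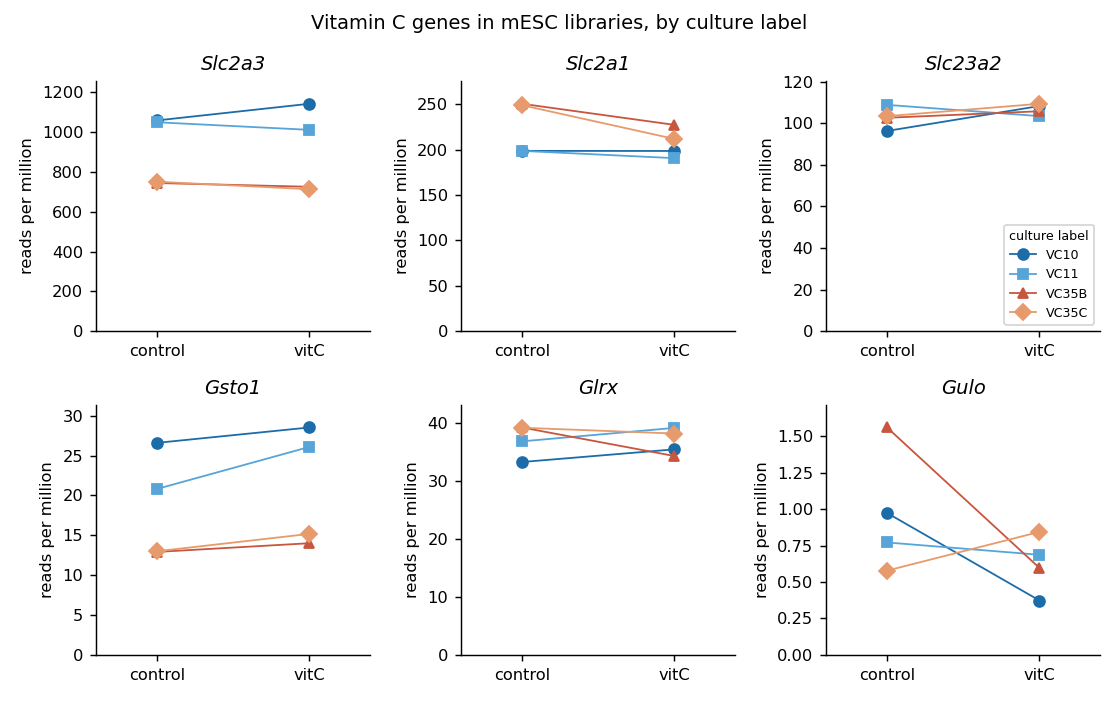
Levels in RPM (vertical axes, from 0) in the 8 mESC libraries for the 6 genes with a read in every library; each line joins the control and the vitC library of 1 culture label. *Slc2a3* and *Gsto1* lie higher in VC10 and VC11 and *Slc2a1* in VC35B and VC35C, whereas *Slc23a2*, *Glrx* and *Gulo* mix the labels.

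Set per kilobase of annotated exon, the untreated mESCs ranked *Slc2a3* first at 124 ± 24.4 RPM per kilobase (SD, n = 4) and *Slc2a1* second at 63.9 ± 8.41 (SD, n = 4). Their ranges over the 4 controls did not overlap. *Slc23a2* followed at 12.9 ± 0.646, *Gsto1* at 9.06 ± 3.28 and *Glrx* at 6.75 ± 0.510 on the same scale (SD, n = 4 each). The ranges of *Slc23a2* and *Gsto1* overlapped, and so did those of *Gsto1* and *Glrx*. *Gulo* was at 0.429 ± 0.188 (SD, n = 4), below all of these. The mean level of *Slc2a3* was thus 9.61 times that of *Slc23a2*, and that of *Slc2a1* 4.94 times.

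In the untreated hESC library *SLC2A3* was again first, at 177 RPM per kilobase. *GSTO1* followed at 59.3 and *SLC2A1* at 34.6. *SLC23A3* was at 6.56 and *SLC23A2* at 4.77, so that *SLC23A3*, whose mouse counterpart had 1 read over 8 libraries, stood above *SLC23A2* in the human cells, with 363 and 552 recovered reads. *GLRX* was at 1.12, *GSTO2* at 0.131 and *RGN* at 0.116, and *SLC23A1* had 0 reads, which allows up to 0.195 RPM. *SLC2A3* shares most of its sequence with *SLC2A14* (394 reads in the control), so reads of the pair are uncertain, and *GLRX* overlaps *RHOBTB3* on the other strand. *SLC23A3* overlaps another annotated protein-coding gene on its own strand, so its reads are uncertain too. The species differ in line, medium, labelled RNA type and annotation, which cannot be told apart, and no test between them was made.

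**Figure D2:**
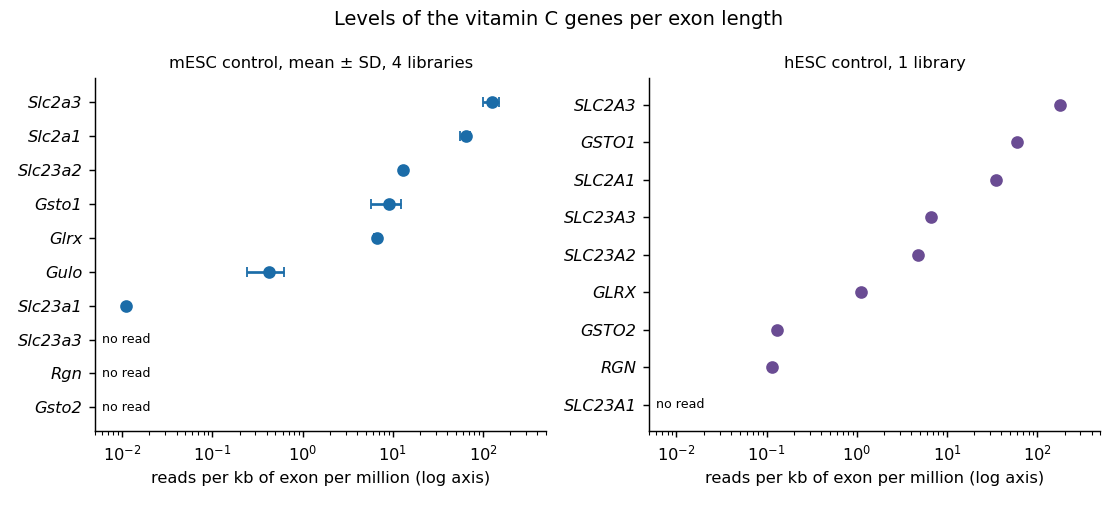
Levels in RPM per kilobase of exon (log axis) in the untreated mESC libraries (mean ± SD, 4 libraries; the SD is not drawn where it exceeds the mean) and in the untreated hESC library (1 library). *Slc2a3* leads in both; *Gsto2* has no read in mESCs, *SLC23A1* has none in hESCs, and *SLC23A3* lies at 6.56 in hESCs, where its mouse counterpart has no read in the untreated mESCs.

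The main comparison asked whether 24 h of vitC altered these genes. Of the 10 genes, 6 were above the lowest deposited value in at least 4 libraries and were tested with limma on the deposited values, whose scale is log2-like for abundant genes and flatter for genes with few reads. With Benjamini-Hochberg adjustment over 14631 genes, 0 of the 6 were past an adjusted p of 0.05 and 0 were at an unadjusted p under 0.05, while 0.342% of all tested genes were past the threshold. The differences, vitC minus control, ran from -0.09 for *Slc2a1* to 0.10 for *Gsto1*, and the limma adjusted p-values from 0.855 to 0.999. For 0 of the 6 did the groups fail to overlap, against 5.28% of all tested genes. edgeR and DESeq2 on the recovered reads also called 0 of the 6.

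Because control and treated libraries of 1 culture label deviated together, the fit with the culture label as a block resolves smaller differences, and it called 10.8% of all tested genes. It called 0 of the 6 genes, and 1 of them, *Slc2a1*, was at an unadjusted p under 0.05. *Slc2a1* differed by -0.09 (95% interval -0.17 to -0.00, limma adjusted p = 0.187), lower in 3 of 4 pairs. *Gsto1* differed by 0.10 (-0.00 to 0.21, limma adjusted p = 0.223), higher in 4 of 4 pairs. On the recovered reads, edgeR with the block gave *Gsto1* a log2 fold change of 0.20 (standard error 0.10, adjusted p = 0.218) and *Slc2a1* one of -0.11 (standard error 0.05, adjusted p = 0.122).

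For *Slc2a3* the difference with the block was -0.00 (95% interval -0.07 to 0.07). That of *Slc23a2* was 0.05 (-0.04 to 0.14), and that of *Glrx* was -0.00 (-0.10 to 0.10). *Gulo* differed by -0.07 (-0.21 to 0.07). Its edgeR log2 fold change with the block was -0.54 with a standard error of 0.60, so that a change of *Gulo* was not detectable at this depth. Over the 6 genes these intervals with the block ran from -0.21 for *Gulo* to 0.21 for *Gsto1* on the log2-like scale. For both genes that scale is flatter than a log2 fold change, so the range does not bound such a change. *Gsto1* differed by 0.10 on it and by 0.20 in edgeR with the block.

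**Figure D3:**
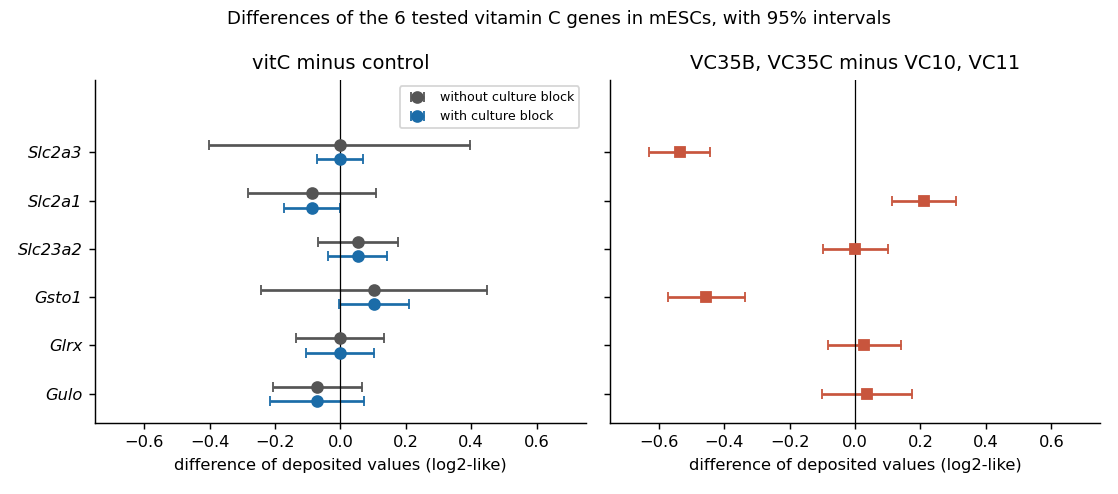
Differences of the deposited, log2-like values for the 6 tested genes in mESCs with 95% intervals from limma (horizontal axes); the left panel gives vitC minus control without and with the culture label as a block, the right panel cultures VC35B and VC35C minus VC10 and VC11. The vitC differences lie between -0.09 and 0.10, while *Slc2a3* and *Gsto1* lie at -0.54 and -0.45 and *Slc2a1* at 0.21 in the right panel.

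The culture labels were compared with treatment held in the model, VC35B and VC35C against VC10 and VC11. Of the 6 genes, 3 were past an adjusted p of 0.05, where 40.5% of all tested genes were. *Slc2a3* was lower in VC35B and VC35C, with a difference of -0.54 (95% interval -0.63 to -0.44, limma adjusted p = 2.57e-08), from 12.46 ± 0.07 to 11.92 ± 0.03 (SD, n = 4). *Gsto1* was lower, with a difference of -0.45 (-0.57 to -0.34, limma adjusted p = 3.25e-06), which on recovered reads was a 1.86-fold difference by edgeR. *Slc2a1* was higher by 0.21 (0.11 to 0.31, limma adjusted p = 0.00127), or 1.18-fold on recovered reads. *Slc23a2* differed by 0.00 (-0.10 to 0.10), *Glrx* by 0.03 (-0.08 to 0.14) and *Gulo* by 0.04 (-0.10 to 0.18).

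The same 3 genes had sets that did not overlap, as did 32.1% of all tested genes. With the mean of each culture label as 1 value, 2 labels against 2, *Slc2a3*, *Gsto1* and *Slc2a1* kept limma adjusted p-values of 4.37e-05, 0.000191 and 0.0125. Repeats of the rRNA class held 42.0% to 51.5% of the repeat counts in VC10 and VC11 and 60.0% to 63.1% in VC35B and VC35C, and the part of this in the differences was not tested. The summed primed pluripotency markers ran from 1714 to 2083 RPM in VC10 and VC11 and from 2096 to 2224 in VC35B and VC35C, and the naive markers from 5034 to 5610 and from 5210 to 5520. Both lists hold *Pou5f1*, *Sox2* and *Nanog*, so these sums are not independent of each other. Their part was not tested either.

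The response to vitC did not pass the test of a difference between the culture sets for any of the 6 genes. The interaction differences ran from -0.14 for *Slc2a1* to 0.02 for *Gulo* (limma adjusted p = 1.00 for each after rounding), and limma called 0% of all tested genes, with 601 at an unadjusted p under 0.05, as edgeR did on the recovered reads, with 529. *Slc2a1* differed by -0.02 with vitC in VC10 and VC11 and by -0.16 in VC35B and VC35C. *Glrx* differed by 0.06 and -0.07 in the same sets. In simulated data with log2 changes of size 0.6 or 1.5, the interaction test found 56% of changed genes, so smaller differences could be missed. The simulated libraries held no other differences between culture labels, unlike the real ones.

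The balance of the glucose carriers was compared as the number of *Slc2a3* reads per *Slc2a1* read within a library. It was 5.33, 5.28, 2.97 and 3.02 in the controls VC10, VC11, VC35B and VC35C and 5.75, 5.30, 3.19 and 3.37 with vitC. The ratio was higher with vitC in 4 of 4 pairs, and the culture sets lay far apart. On the log2 scale the controls averaged 1.99 ± 0.48 and the vitC libraries 2.09 ± 0.44 (SD, n = 4 each). Their difference of 0.09 had a two-sided p of 0.543 in an exact permutation test, run over all 70 labellings. An exact sign-flip test over the 4 pairs gave p = 0.125, the smallest that 4 pairs allow. Between the culture sets the log2 ratio was 2.44 ± 0.06 in VC10 and VC11 and 1.65 ± 0.08 in VC35B and VC35C (SD, n = 4 each), a difference of -0.79.

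**Figure D4:**
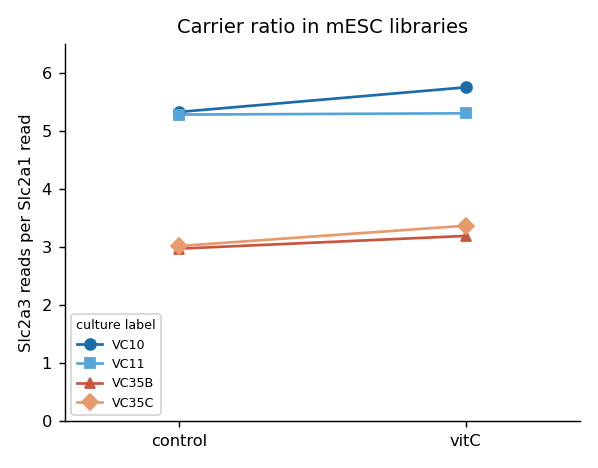
Reads of *Slc2a3* per read of *Slc2a1* (vertical axis, from 0) in the 8 mESC libraries; each line joins the control and the vitC library of 1 culture label. The ratio lies between 5.28 and 5.75 in VC10 and VC11 and between 2.97 and 3.37 in VC35B and VC35C.

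The genes whose deposited values followed those of the 3 highest members most closely over the 8 libraries were found by Pearson's r among 14630 other tested genes, as a description without a test, since the libraries share their culture labels. For *Slc2a3* they were *Trp53inp1*, *Rhox4a* and *Sh3bgrl2*, with r from 0.995 to 0.996. Like *Slc2a3*, all 3 were lower in VC35B and VC35C, with differences of -1.20, -0.25 and -0.87 on the log2-like scale. *Gsto1* had an r of 0.9498 with *Slc2a3*, and *Slc2a1* one of -0.810. For *Slc2a1* the closest were *Gm10015*, *Rtn3* and *Snn* (r from 0.973 to 0.980), and for *Slc23a2* they were *2410127L17Rik*, *Lekr1* and *Gm15832* (r from 0.937 to 0.947).

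Around these genes, other genes of the same routes were counted from lists, with the block named wherever it decides. The lists were chosen with earlier results of these data known, so their counts are a description. Of 9 further glucose carriers, 5 had 0 reads in every library and 3 were tested (*Slc2a4*, *Slc2a5*, *Slc2a8*), of which 0 were called in either fit. The fructose carrier *Slc2a5* differed by 0.13 (limma adjusted p = 0.775, and 0.282 with the block), and *Slc2a8* by 0.02 (limma adjusted p = 0.976, and 0.869 with the block). The list's median difference was 0.02, against -0.00 over all tested genes.

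On the glucuronate route, which supplies UDP-glucuronate and in the liver leads on to ascorbate, 4 of 5 genes were tested, and with the block 2 rose and 0 fell, where 10.8% of all tested genes were called, against 0 calls without it, where 0.342% were. *Ugp2*, which makes UDP-glucose, rose by 0.19 (95% interval 0.09 to 0.29, limma adjusted p = 0.0142 with the block and 0.316 without). *Ugdh*, which oxidises UDP-glucose to UDP-glucuronate, rose by 0.16 (0.06 to 0.26, limma adjusted p = 0.0283 with the block and 0.534 without). Both were higher in 4 of 4 pairs. On the recovered reads with the same block the count methods differed. DESeq2 called neither (adjusted p = 0.209 for *Ugp2* and 0.217 for *Ugdh*), and edgeR called both (adjusted p = 0.00587 and 0.0131). The list's median difference was 0.09.

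The list of thiol reduction held 16 genes, only some of which supply electrons for dehydroascorbate recycling. Of these 16, 4 rose and 2 fell with the block (10.8% of all tested genes called) and 0 were called without it (0.342%), with a median difference of 0.00. *Gclc*, the catalytic subunit for the first step of glutathione synthesis, rose by 0.25 (0.16 to 0.34, limma adjusted p = 0.000805 with the block and 0.811 without). *Pgd*, a source of NADPH, rose by 0.20 (limma adjusted p = 0.00043 with the block and 0.326 without). The thioredoxin reductases *Txnrd3* and *Txnrd1* rose by 0.20 and 0.12 (limma adjusted p = 0.0198 and 0.0241 with the block, and 0.347 and 0.770 without). *Glrx3*, a glutaredoxin of iron-sulphur handling, fell by 0.16, and *Pdia3*, a disulphide isomerase, fell by 0.12 (limma adjusted p = 0.0345 and 0.0312 with the block, and 0.713 and 0.656 without). In DESeq2 with the same block *Gclc* and *Pgd* were called (adjusted p = 0.0126 and 0.00035), and *Txnrd3*, *Txnrd1*, *Glrx3* and *Pdia3* were not (adjusted p = 0.308, 0.105, 0.347 and 0.149). In edgeR with the block all of these genes were called, with adjusted p = 0.00964, 0.0195, 0.0251 and 0.0128 for *Txnrd3*, *Txnrd1*, *Glrx3* and *Pdia3*. On recovered reads the edgeR log2 fold change of *Txnrd3* with the block was 0.41, since the deposited scale is flatter for genes with few reads.

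Of 8 genes that reduce the ascorbate radical or belong to its cytochrome families, 6 were tested and *Cyb5a* was not analysed in mESCs. With the block *Cyb5r1*, a cytochrome b5 reductase, rose by 0.16 (limma adjusted p = 0.0141, and 0.783 without) and *Cyb5b*, the mitochondrial outer membrane cytochrome b5, fell by 0.13 (limma adjusted p = 0.0247, and 0.589 without), and without it 0 were called. DESeq2 with the same block called neither (adjusted p = 0.181 for *Cyb5r1* and 0.155 for *Cyb5b*), and edgeR with it called both (adjusted p = 0.0116 and 0.00824). The shares of all tested genes called were again 10.8% with the block and 0.342% without. The list's median difference was 0.02.

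Since *Slc2a1* and *Slc2a3* are also textbook hypoxia-responsive genes, 10 further genes of that response were set beside them. Without the block 1 of the 10 was called, where 0.342% of all tested genes were, and with it 1 rose and 3 fell, where 10.8% were called, with a median difference of -0.10. *Ldha*, which makes lactate from pyruvate, was at 256, 261, 285 and 359 RPM in the controls and at 148, 154, 173 and 186 with vitC, without overlap. It fell by 0.71 (limma adjusted p = 0.0221, and 1.16e-09 with the block). The call without the block was lost without control replicate 2 or 3 or vitC replicate 1, 2 or 3 (limma adjusted p from 0.0511 to 0.101), with replicates 3 and 4 only (0.178) and with no filter on low values (0.131). With the block *Slc16a3*, the lactate exporter MCT4, fell by 0.45 (limma adjusted p = 0.000343, and 0.405 without the block) and *Pgk1*, a glycolytic kinase, fell by 0.22 (limma adjusted p = 0.00165, and 0.732 without). *Pdk1*, which inhibits pyruvate dehydrogenase, rose by 0.12 (limma adjusted p = 0.0493 with the block and 0.876 without). DESeq2 with the block did not call *Pdk1* (adjusted p = 0.282), whereas edgeR with the block did (adjusted p = 0.0337). The *Pdk1* difference without the block ran from 0.0416 without vitC replicate 1 to 0.21 without vitC replicate 4. *Slc16a3* had few reads, at 2.11, 2.51, 4.90 and 10.4 RPM in the controls and 0.373, 0.172, 1.79 and 1.69 with vitC. On recovered reads its log2 fold change with the block was -2.39 in edgeR (standard error 0.33) and -2.42 in DESeq2.

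**Figure D5:**
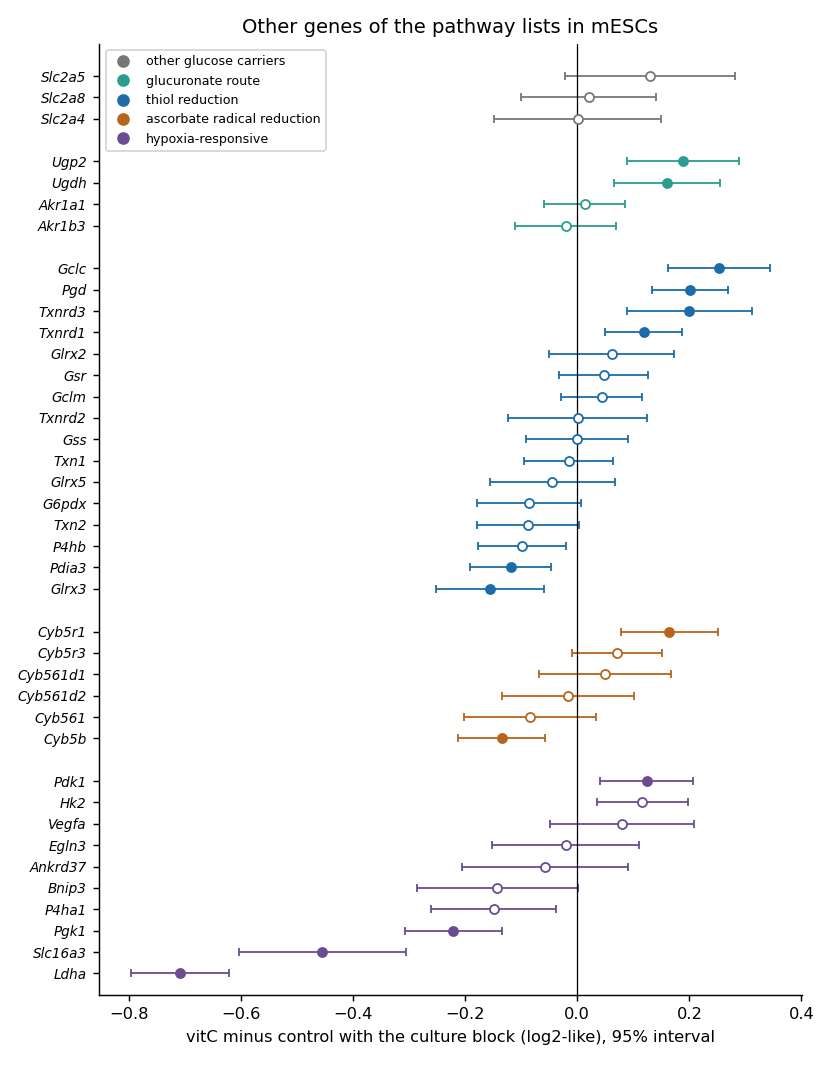
Difference of deposited values, vitC minus control (horizontal axis, log2-like, with 95% intervals from limma with the culture label as a block), for the tested genes of 5 lists around vitamin C in mESCs; filled points have an adjusted p under 0.05 in that fit. On this scale, which flattens genes with few reads, *Ldha* lies at -0.71, *Slc16a3* at -0.45 and *Gclc* at 0.25. The order differs on recovered reads, where edgeR with the block puts *Slc16a3* at -2.39 and *Ldha* at -0.81, and *Slc2a5* (0.91, not called) and *Txnrd3* (0.41) above *Gclc* (0.31).

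In the hESC libraries each gene's share of the recovered reads was compared, as a log2 ratio of vitC to control with an exact 95% interval that covers counting error only. There is 1 library per condition, so there is no replicate check. In these libraries 8 of 8 primed pluripotency markers had 10 or more reads. So did 6 of 8 naive markers, a list that shares *POU5F1*, *SOX2* and *NANOG* with the primed one. Of 5 endoderm markers, 4 in the control and 5 with vitC had 10 or more reads, summing to 12.0 and 13.8 RPM. The 7 fibroblast markers were *COL1A1*, *COL1A2*, *COL3A1*, *THY1*, *LUM*, *DCN* and *PDGFRA*. They summed to 1751 RPM in the control and to 1631 with vitC, with *DCN* at 0, and their part in the ratios was not tested. The sum is not split by gene here, so it does not by itself identify fibroblasts. *SLC2A3* had 19673 reads in the control library and 21324 with vitC, a log2 ratio of -0.05 (interval -0.07 to -0.02). *SLC2A1* had 3517 and 3891 reads (-0.02, interval -0.08 to 0.05). *SLC23A2* had 552 and 575 reads (-0.10, interval -0.27 to 0.07), and *SLC23A3* had 363 and 350 (-0.21, interval -0.43 to 0.00). *GSTO1* had 1541 and 1798 reads (0.06, interval -0.04 to 0.16), and *GLRX* had 107 and 131 (0.13, interval -0.25 to 0.51). For all of these but *SLC2A3* no difference was detectable at this depth, and scaling by the aligned library size moved *SLC2A3* to -0.01.

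Of the 8 genes with at least 10 reads over both libraries, 2 differed by 1.5-fold or more, where 13.5% of 15985 genes did. These were *GSTO2* (20 and 37 reads, 1.65-fold, log2 interval -0.10 to 1.59) and *RGN* (5 and 11 reads, 1.97-fold, log2 interval -0.67 to 2.85), and both intervals include 0. The recovered units of the hESC table were not all single reads. In the control 1580 genes stood at 1, 356 at 2, 740 at 3 and 232 at 4 units, and the units summed to 1.77 times the aligned library size. The intervals may therefore be too narrow, and with halved counts that of *SLC2A3* ran from -0.08 to -0.01 and that of *GSTO2* from -0.51 to 1.96. *LDHA* had a log2 ratio of 0.05 (12175 and 14069 reads), and of the hypoxia-responsive genes 0 of 10 were higher and 1 (*ANKRD37*) was lower by 1.5-fold or more. Of the 16 genes of thiol reduction 0 were higher and 1, the glutaredoxin gene *GLRX2*, was lower (163 and 118 reads, log2 ratio -0.63, interval -0.98 to -0.28). In the lists of further glucose carriers, the glucuronate route and ascorbate radical reduction 0 genes were past that fold.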

How the data were processed

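RNA-seq of 8 mESC and 2 hESC libraries was used. The authors trimmed reads with Trim Galore, used SQuIRE to map them (mm10 for mouse, hg38 for human) and to count them, and deposited variance-stabilised gene values (log2-like). HISAT2 and DESeq2 are also named in the submitters' processing notes, without versions. The expected counts per repeat subfamily that the authors deposited were used for the rRNA share and the aligned library size, and 9 other columns of per-sample values were not used. Samples were grouped by their labels, and none was left out.

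Inverting the transformation gave whole numbers, within a tolerance of 1e-05, for 100% of the 116385 mESC and 38034 hESC values above the lowest. These are read as reads, but the hESC units were not all single reads. Depth was between 3354852 and 6921305 reads in mESC and 15367652 and 17188555 in hESC libraries. limma 3.58.1 (lmFit, eBayes with a trend, R 4.3.3) was run on the values of genes exceeding the table's lowest value in 4 or more libraries, with Benjamini-Hochberg adjustment. edgeR 4.0.16 (quasi-likelihood) and DESeq2 1.42.0 were run on recovered reads as alternatives, with the culture block, other filters, quantile normalization and left-out libraries. The deviations of libraries sharing a culture label, which pairs them, correlated at 0.626 to 0.765 over 14631 genes, and those of control and vitC libraries of different labels in the same culture set at 0.574 to 0.665. Each library correlated best with its own label. On simulated data limma found 94% of 200 changed genes for vitC against control and 93.5% for the culture sets. The simulated log2 changes were of size 0.6 or 1.5, in genes with many reads. The vitC simulation held no differences between culture labels, which the real libraries have. The shares found therefore do not apply to smaller differences or to the real fit without the block. The carrier ratio used a pseudocount of 0.5 read and a permutation test in Python 3.11.15 with scipy 1.17.1. Floors are 3 reads, and 95% intervals of counts hold for counting error alone, since without molecular identifiers several reads can stem from 1 molecule. Gene positions and exon lengths are from GENCODE on GRCm38 and GRCh38.

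All 10 members are named, with list genes past the threshold in either limma fit, or else the 2 with the smallest p. The members and lists were chosen with earlier results of these data known.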

Additional observations from a re-analysis of the deposited data

How the results depend on the processing

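None of the 6 tested genes was called for vitC, and none for the response by culture set, under any alternative run, and *Slc2a3*, *Gsto1* and *Slc2a1* were called for the level by culture set under all. The number of genes called for vitC was 50. It was 1581 with the replicate block, 1947 and 521 with that block in edgeR and DESeq2, 122 in DESeq2, 28 with values above the lowest in all 8 libraries, 175 with replicates 1 and 2 only, 4 with replicates 3 and 4 only, and 19 to 32 with 1 library left out. By construction, the block takes the differences between culture labels out of the residual error. The response by culture set went from 0 to 13 genes with the replicate block. Leaving out 1 library, added after the data were seen for the culture-set comparisons, left 0 genes for the response and 5048 to 5747 for the level.

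Values near 0 turned sign, in each case without a call. With vitC, *Slc2a3* was at 0.00093 in edgeR, 0.0071 in DESeq2 and 0.0401 in replicates 1 and 2. *Glrx* was at 0.0032 in edgeR and 0.0036 in DESeq2 with the block, 0.0040 in DESeq2 without it and 0.0650 in replicates 1 and 2, where *Slc2a8* was at -0.0502. With 1 library left out, the vitC difference ran from -0.12 to 0.0989 for *Slc2a3*, -0.0330 to 0.0207 for *Glrx* and -0.0249 to 0.0546 for *Slc2a8*. Without a change of sign, it ran from -0.14 to -0.0394 for *Slc2a1*, nearest to 0 without control replicate 3, and from 0.0130 to 0.21 for *Gsto1*, nearest to 0 without vitC replicate 1. The response by culture set then ran from -0.0654 to 0.0832 for *Slc23a2*, -0.0728 to 0.11 for *Gulo* and -0.14 to 0.0496 for *Gsto1*. The level by culture set then ran from -0.0284 to 0.0310 for *Slc23a2* and -0.0039 to 0.0626 for *Glrx*. The carrier ratio difference ran from -0.0506 to 0.23 with 1 library left out, below 0 without control replicate 3 or 4 or vitC replicate 1 or 2. Leaving out 1 library makes the culture sets unequal between the groups, and the part of this in the change of sign was not tested. In hESCs the number of genes past 1.5-fold went from 2158 to 629 with at least 50 reads, and that of the members from 2 to 1. On the deposited values these numbers were 3 and 0. The deposited hESC scale is compressed, and not only for the lowest counts. *GLRX2*, with 163 and 118 reads, had a log2 ratio of -0.63 on recovered reads and a difference of -0.09 on that scale. Ranks by length were the same with the longest transcript. Depth limits *Gulo* and the genes with under 5 reads.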
